A study of Mus musculus with 12 samples.

Results

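A set of 10 neuropeptide precursor genes was followed in mouse cortical neurons that carry exon 1 of huntingtin with a long or a short polyglutamine tract. The 10 genes, of 41388 in the deposited tables, are Npy, Sst, Vip, Cck, Crh, Penk, Pdyn, Tac1, Tac2 and Cort. They were chosen by name as precursors of peptides known from the cortex, and all 10 passed the filter on low counts. The study asked how mutant huntingtin changes transcription in primary cortical neurons, a culture model of Huntington's disease.

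The neurons came from Swiss Webster embryos at embryonic day 16 and received lentivirus at 5 days in vitro (DIV). RNA was taken at DIV 10 and rRNA was removed from it. The 12 libraries form 3 groups of 4. The first received a control vector (labelled as an empty vector in 3 libraries), the second wild-type exon 1 with 25 glutamines (Htt-25Q), and the third mutant exon 1 with 72 glutamines (Htt-72Q). All neurons kept their own huntingtin alleles, and all 3 groups were infected with virus. The sources used here do not give the promoter of the constructs, the pooling of embryos or the share of infected cells. Nothing in the labels says that the libraries of a group came from separate cultures, so p-values measure the spread between these libraries, which may be in part technical.

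Neuropeptides are made as long precursors that enter the secretory pathway, are cut by prohormone convertases, trimmed, often amidated and stored in dense-core vesicles. In the cortex most of the 10 genes mark kinds of GABAergic interneuron. Sst, Npy and Cort mark overlapping classes, Vip and Crh others, and Cck is made both by a class of basket cells and by many pyramidal cells. Released peptides act on G protein-coupled receptors, and many of the precursor genes are known to respond to neuronal activity through cyclic AMP and calcium signalling.

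Start site upstream windows were available from RefSeq (GRCm38.p6) for 8 of the 10 genes, and their 250 bases before the start were searched. Crh and Penk had no window and were not searched. They are shown because activity-dependent precursor genes are known for a cyclic AMP response element, TGACGTCA, bound by CREB. The full element was found in 1 of the 8 genes (Sst), against 1.55% of 32851 promoters of the same length. The shorter element TGACG, which the full element contains on both strands, was found on either strand in 5 of the 8 (Sst, Vip, Cck, Tac1 and Cort), against 17.8% of all promoters. TATAAA on the gene's strand was found in 1 of the 8 (Vip, at 3 places, the nearest 30 to 25 bases before the start), against 7.59%, and TGANTCA in 0 of the 8, against 6.75%. A match is a description of letters and not evidence of binding. The last 120 bases before the start follow for 4 genes, on the gene's strand and 5′ to 3′, with the full or shorter element and TATAAA in capitals. The window of Npy, which holds none of them, is set beside the other 3 for comparison.
Sst: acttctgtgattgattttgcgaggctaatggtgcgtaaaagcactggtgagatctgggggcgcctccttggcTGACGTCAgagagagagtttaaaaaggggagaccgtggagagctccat
Cck: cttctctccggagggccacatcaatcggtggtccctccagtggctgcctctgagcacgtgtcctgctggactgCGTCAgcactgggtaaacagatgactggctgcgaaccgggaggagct
Vip: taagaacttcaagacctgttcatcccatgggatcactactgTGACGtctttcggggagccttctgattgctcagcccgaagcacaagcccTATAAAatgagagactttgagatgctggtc
Npy: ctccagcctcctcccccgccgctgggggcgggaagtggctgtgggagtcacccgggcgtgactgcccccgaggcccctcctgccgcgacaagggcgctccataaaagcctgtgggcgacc
The windows are chr16:23890845-23890964 (minus strand) for Sst, chr9:121495695-121495814 (minus) for Cck, chr10:5639098-5639217 (plus) for Vip and chr6:49822590-49822709 (plus) for Npy. The element of Sst lies 48 to 41 bases before the start. The shorter element of Cck lies on the other strand, as CGTCA, 47 to 43 bases before the start, and that of Vip 79 to 75 bases before it.

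Total counts per library were 12668531 to 23357966 in control vector, 18097932 to 27471442 in Htt-25Q and 12439335 to 20040985 in Htt-72Q. Levels below are counts relative to the library's total (CPM) after TMM scaling, a scaling of library sizes that lessens the weight of a few abundant genes. A number opens each library's label (22, 24, 26, 27 or 27_1) and is called its preparation here, though no label explains it. Preparations 27 and 27_1 hold 1 control library, 2 Htt-25Q libraries and 1 Htt-72Q library (control vector 4, Htt-25Q 3, Htt-25Q 4 and Htt-72Q 4). In these 4 libraries the summed CPM of 26 activity-induced genes was 805.1 to 2005, against 288.0 to 559.7 in the other 8. The libraries also split into 6 with Gapdh at 9.18 to 20.1 CPM and 6 with Gapdh at 35.5 to 48.0 CPM. The mitochondrial gene mt-Nd2 ran the other way, at 259 to 392 and 71.7 to 159 CPM. The second class holds 3 Htt-72Q, 2 control and 1 Htt-25Q library. The endogenous Htt gene lay at 89.2 to 235 CPM in control vector, 124 to 182 in Htt-25Q and 128 to 213 in Htt-72Q, so its counts do not separate the groups.

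Levels of different genes were compared per transcript length, as the authors' RPKM. In control neurons Cck was the most abundant of the 10, at 164 ± 48.8 RPKM (SD, n = 4), above 98.9% of the genes tested. Sst followed at 17.3 ± 2.54 and Npy at 7.99 ± 2.77 RPKM, and the ranges of these 3 neither overlapped each other nor that of the gene below. The other 7 formed a graded tail in which no neighbours differed beyond their spread. Vip stood at 2.96 ± 1.97 and Cort at 2.23 ± 1.61 RPKM. Tac2 (1.38 ± 0.350) and Penk (0.918 ± 0.486 RPKM) came next. Tac1, Crh and Pdyn lay between 0.456 and 0.527 RPKM, where Pdyn was above only 11.8% of the genes tested. The same 3 genes led in the other groups, but Npy overlapped with Cort in both, and in Htt-72Q the ranges of Sst (from 7.92 RPKM) and Npy (up to 9.23 RPKM) overlapped.

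**Figure D1:**
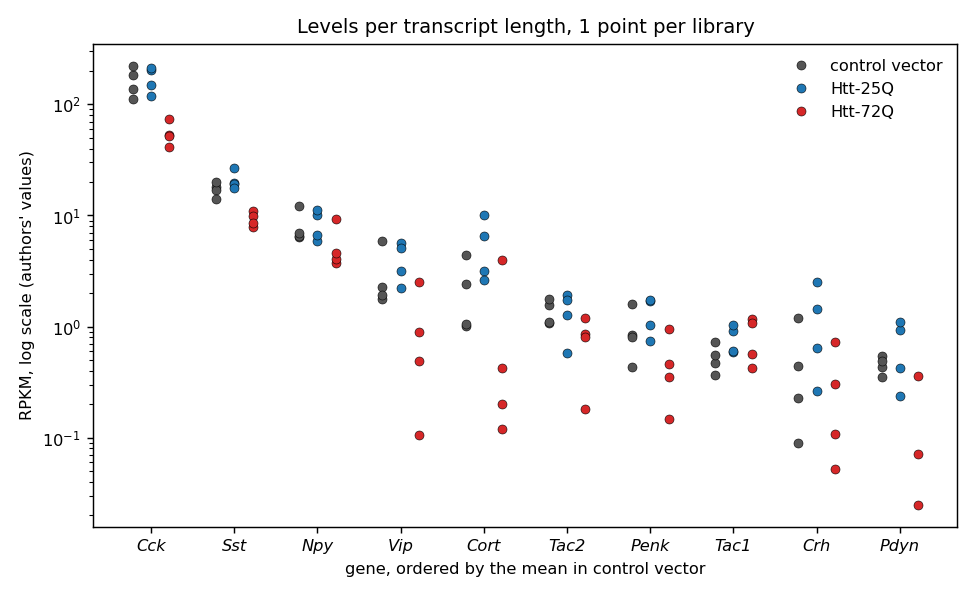
RPKM as the authors gave them (log scale) for the 10 genes, ordered by the control mean, with 1 point per library coloured by group. Cck lies far above the rest in every library. Pdyn in Htt-72Q 3 had 0 counts and is not drawn.

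Summed over the 10 genes, precursor transcripts came to 98.7 to 191.9 CPM in control vector, 106.8 to 198.3 in Htt-25Q and 43.7 to 70.3 in Htt-72Q. All 4 Htt-72Q libraries lay below all 8 others. Cck made up 77.9 to 83.6% of the sum in control vector, 75.3 to 76.6% in Htt-25Q and 64.8 to 74.0% in Htt-72Q. Without Cck the sum was 21.7 to 37.2 CPM in control vector, 26.4 to 47.4 in Htt-25Q and 12.3 to 21.3 in Htt-72Q, and again the Htt-72Q libraries lay below the other groups.

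The first comparison sets Htt-72Q beside the vector alone. Cck fell 3.15-fold and Sst 1.97-fold, and no precursor rose. In bulk RNA, fewer cells of a type and less RNA per cell cannot be told apart. With the edgeR quasi-likelihood test over 14707 genes, 2 of the 10 passed an adjusted p of 0.05, both lower, where 13.7% of all genes tested were called lower, 9.44% higher and 23.2% in either direction. Over all genes 1389 were called higher and 2022 lower, and 1931 and 1702 with library totals as the only scaling. Ranges were apart for 3 of the 10 (Cck, Sst and Pdyn, all lower), against 13.6% of all genes that were lower in this way, 10.1% that were higher and 23.7% in all. Fold changes were negative for 9 of 10 genes, with a median log2 value of -0.91, against 0.03 for all genes tested.

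Htt-72Q against Htt-25Q sets the 2 tract lengths against each other, with exon 1 expressed in both. Here Cck, Sst, Vip, Penk and Pdyn fell and again none rose. These are 5 of the 10 genes, where 13.4% of all genes tested were called lower, 9.07% higher and 22.5% in either direction (1334 higher and 1974 lower, and 1745 and 1690 with library totals only). Ranges did not overlap for 2 of the 10 (Cck and Sst), against 15.1% of all genes lower, 11.6% higher and 26.7% in all. All 10 fold changes were negative, with a median log2 value of -1.59, against 0.03 for all genes. The calls of Vip, Penk and Pdyn depend on single libraries: without Htt-25Q 3, Htt-25Q 4, Htt-72Q 1 or Htt-72Q 2, the count was 2. The comparisons with Htt-72Q share those 4 libraries.

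**Figure D2:**
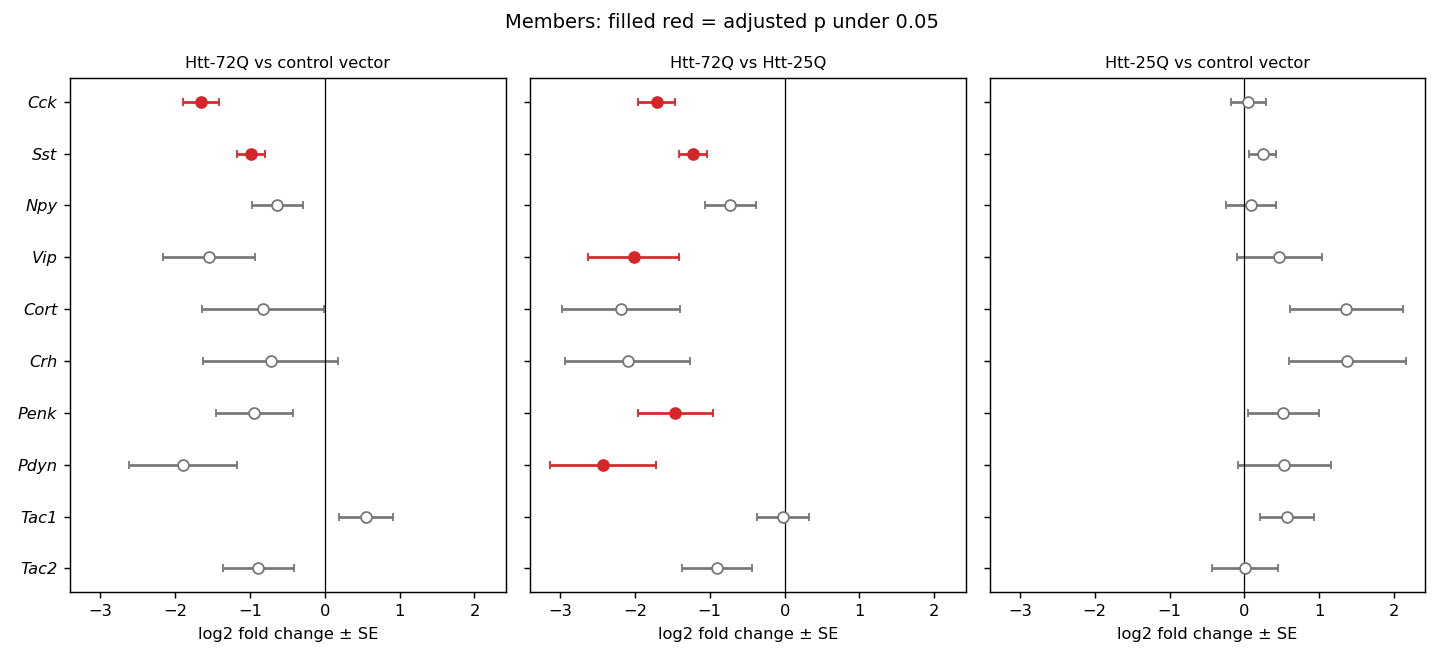
Log2 fold change ± SE of the 10 genes in the 3 comparisons (edgeR, 4 libraries per group), filled red where the adjusted p is under 0.05. Cck and Sst are filled in both comparisons with Htt-72Q, Vip, Penk and Pdyn only in that with Htt-25Q, and none for Htt-25Q against control vector.

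Htt-25Q against control vector asks what wild-type exon 1 does. No precursor passed the test, and 0% of all genes tested were called (0 of 14707 by edgeR, DESeq2 and limma voom). Of all 14707 genes 129 were at an unadjusted p under 0.05 (edgeR), none of them among the 10. This is a smaller share than the 0.05 that a well-calibrated test gives when nothing differs. The test may thus be cautious here, and 0 calls do not show that no gene changed. All 10 fold changes were above 0, from 0.01 for Tac2 to 1.37 for Crh on the log2 scale, with a median of 0.49, but the ranges overlapped for each gene. Over all genes 0.993% had ranges apart (0.673% higher and 0.32% lower). Of the Htt-25Q libraries 2 come from preparations 27 and 27_1, against 1 in each other group. With preparation as a block the median was 0.16, and Cck (-0.16), Pdyn (-0.22) and Tac2 (-0.43) lay below 0. The interval of a change is wide for the scarce genes: the SE was 0.78 for Crh and 0.75 for Cort.

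Libraries of 1 preparation resembled each other, so the comparisons were also fitted with preparation as a block. In that fit 5 of the 10 precursors fell in Htt-72Q against control vector (Cck, Sst, Vip, Penk and Pdyn), where 17.2% of all genes fell, 13.4% rose and 30.5% did either. Against Htt-25Q 7 fell (those 5, Crh and Cort), where 13.4% of all genes fell, 7.84% rose and 21.2% did either. Htt-25Q 4 is the lone library of preparation 27 and adds nothing to this fit. Without the 4 libraries of preparations 27 and 27_1, 5 precursors fell in each comparison, where 10.4% of all genes fell against control vector and 7.31% against Htt-25Q. With the class of library by Gapdh as a term 3 and 6 fell, where 14.7% and 13.2% of all genes did. Within the 4 preparations that hold both groups, Htt-72Q lay below control vector in 4 of 4 for 7 of the genes (Cck, Sst, Vip, Penk, Pdyn, Tac2 and Cort), as did 23.9% of all genes tested. Within the 3 preparations that hold both Htt-72Q and Htt-25Q, it lay lower in 3 of 3 for 8 genes, all but Tac1 and Tac2, as did 26.6% of all genes. The within-preparation differences were tight for the abundant genes, -1.89 to -1.20 for Cck and -1.41 to -0.79 for Sst on the log2 scale against control vector, and ran from -5.22 to -0.06 for Pdyn.

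**Figure D3:**
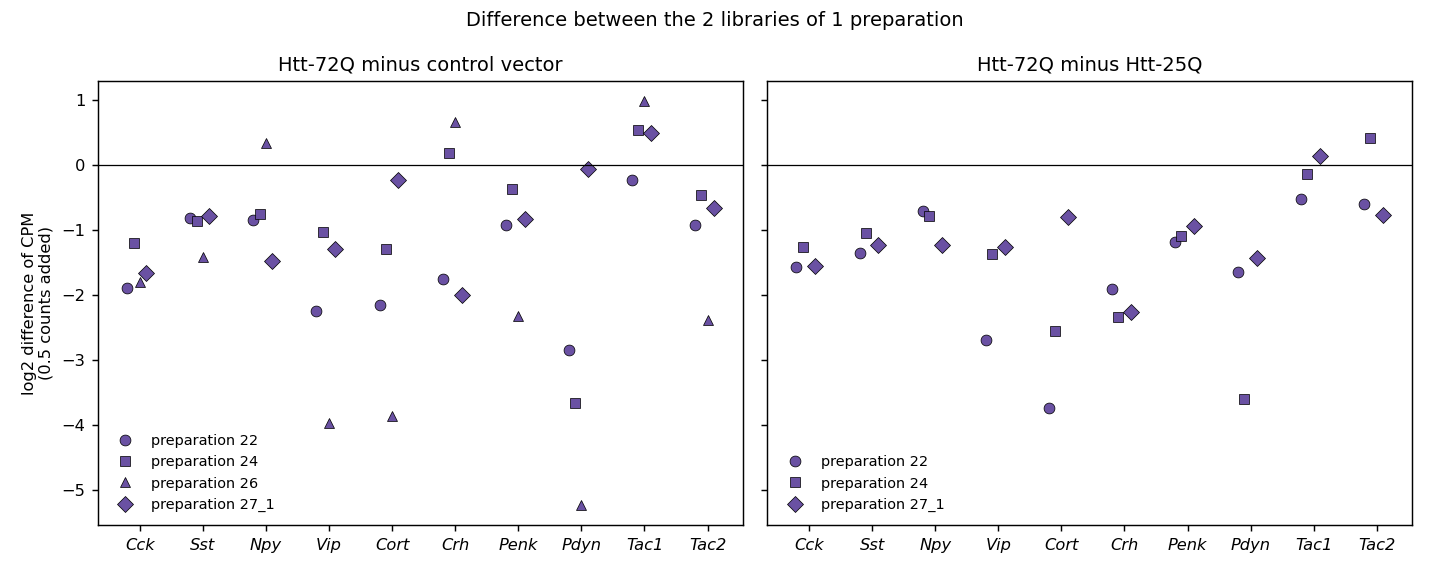
Log2 difference in CPM (0.5 counts added) between the 2 libraries of each preparation, for Htt-72Q minus control vector (4 preparations) and Htt-72Q minus Htt-25Q (3 preparations). Cck and Sst form tight clusters below 0, while Vip, Cort and Pdyn spread over several units.

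Cck (ENSMUSG00000032532, GRCm38 chromosome 9, 121489825 to 121495689, minus strand) encodes the precursor of cholecystokinin. It stood at 130, 77.04, 98.6 and 155 CPM in control vector 1 to 4, at 103, 80.5, 143 and 151 CPM in Htt-25Q 1 to 4, and at 34.9, 33.5, 28.3 and 49.0 CPM in Htt-72Q 1 to 4. The highest Htt-72Q library lay below the lowest of the other 8, and within each group the libraries of preparations 27 and 27_1 were the highest. Its log2 fold change was -1.66 ± 0.25 against control vector (SE, adjusted p = 0.000254, edgeR) and -1.71 ± 0.25 against Htt-25Q (adjusted p = 0.000197), from counts of 355 to 3822 reads per library. Cck lay lower in Htt-72Q within both classes of libraries, though some groups there hold 1 library. In the first class 1 Htt-72Q library lay at 28.3 CPM, against 98.6 to 130 in control vector and 80.5 to 151 in Htt-25Q. In the second Htt-72Q lay at 33.5 to 49.0 CPM, against 77.04 to 155 in control vector and 143 in 1 Htt-25Q library.

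Over the 12 libraries the genes whose log2 CPM tracked Cck most closely, among 13179 genes with a mean of at least 1 CPM, were Plxdc2 (Pearson r 0.989), Brinp1 (0.985) and Gria3 (0.984). Plxdc2 encodes a plexin-domain membrane protein, Brinp1 a neural protein induced by bone morphogenetic protein and retinoic acid, and Gria3 an AMPA receptor subunit. Brinp1 averaged 98.1 CPM in Htt-72Q, against 322 CPM in control vector and 365 CPM in Htt-25Q, and Gria3 averaged 22.1 CPM against 71.1 and 74.0 CPM. The 12 points share the group difference and the preparations, so the correlations are descriptions.

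Sst (ENSMUSG00000004366, chromosome 16, 23889581 to 23890844, minus strand) encodes the precursor of somatostatin, an inhibitory peptide of dendrite-targeting interneurons. Its levels were 11.1, 10.2, 12.6 and 8.60 CPM in control vector, 16.2, 11.6, 11.7 and 10.99 CPM in Htt-25Q and 6.30, 5.60, 4.70 and 4.98 CPM in Htt-72Q. All 4 Htt-72Q libraries lay below the other 8, and they spread little among themselves. Its change on the log2 scale was -0.98 ± 0.19 against control vector (SE, adjusted p = 0.00171, edgeR) and -1.23 ± 0.19 against Htt-25Q (adjusted p = 0.000301). Unlike Cck, Sst was at its lowest control value in preparation 27_1, where the activity-induced genes were high.

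Npy and Cort mark interneuron classes that overlap. Npy (ENSMUSG00000029819, chromosome 6, 49822710 to 49829507, plus strand), the precursor of neuropeptide Y, ranged over 3.699 to 6.99 CPM in control vector, 3.34 to 6.55 in Htt-25Q and 2.04 to 5.18 in Htt-72Q. In Htt-72Q 3 of the 4 libraries lay below all others and Htt-72Q 3, at 5.18 CPM, lay among them. Its log2 fold change against control vector was -0.63 ± 0.34 (adjusted p = 0.205, edgeR), and -1.02 without Htt-72Q 3 (adjusted p = 0.0316). Against Htt-25Q the values were -0.73 ± 0.34 (adjusted p = 0.147) and, without that library, -1.12 (adjusted p = 0.0206).

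Cort (ENSMUSG00000028971, chromosome 4, 149125034 to 149126763, minus strand) encodes cortistatin, a relative of somatostatin that binds the same receptors. Its levels were 0.70, 0.72, 1.72 and 3.05 CPM in control vector, 2.17, 1.77, 4.56 and 7.06 CPM in Htt-25Q and 0.13, 0.27, 0.08 and 2.61 CPM in Htt-72Q. In Htt-72Q 1 to 3 there were only 2, 4 and 1 counts, while Htt-72Q 4 of preparation 27_1 had 54. The log2 fold change was -0.82 ± 0.82 against control vector (adjusted p = 0.508, edgeR) and -2.19 ± 0.79 against Htt-25Q (adjusted p = 0.0611). Without Htt-72Q 4 these were -3.13 (adjusted p = 0.0164) and -4.48 (adjusted p = 0.00154), so both depend on this library. Those fits hold no Htt-72Q library of preparations 27 and 27_1, where Cort was highest in every group, while the other groups keep theirs. With the preparation block the change was -1.22 ± 0.53 against control vector (adjusted p = 0.0996) and -2.19 ± 0.54 against Htt-25Q (adjusted p = 0.0116).

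Vip (ENSMUSG00000019772, chromosome 10, 5639218 to 5647614, plus strand) encodes vasoactive intestinal peptide, made by interneurons that mostly inhibit other interneurons. Its levels were 3.57, 2.69, 3.08 and 9.16 CPM in control vector, 4.85, 3.40, 8.91 and 8.03 CPM in Htt-25Q and 0.72, 1.30, 0.16 and 3.72 CPM in Htt-72Q. Within each preparation the Htt-72Q library was the lowest, and in each group preparations 27 and 27_1 were the highest, so that Htt-72Q 4 overlapped with the other groups. The log2 fold change was -1.55 ± 0.61 against control vector (adjusted p = 0.0849, edgeR) and -2.01 ± 0.61 against Htt-25Q (adjusted p = 0.0284). With the preparation block they were -1.78 ± 0.36 (adjusted p = 0.00245) and -1.88 ± 0.37 (adjusted p = 0.00291). Without Htt-72Q 4 the first was -2.60 (adjusted p = 0.0094), in a fit with no Htt-72Q library of preparations 27 and 27_1. Without Htt-72Q 3 the second no longer passed (adjusted p = 0.0503).

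Crh (ENSMUSG00000049796, chromosome 3, 19693401 to 19695396, minus strand) encodes corticotropin-releasing hormone, in the cortex a product of interneurons. It was scarce, at 0.12 to 1.61 CPM in control vector, 0.35 to 3.42 in Htt-25Q and 0.07 to 0.96 in Htt-72Q, with 1 to 60 counts per library. Its log2 fold change was -0.72 ± 0.90 against control vector (adjusted p = 0.606, edgeR), and 0.09 without control vector 4. Against Htt-25Q it was -2.10 ± 0.84 (adjusted p = 0.0882), and -1.89 ± 0.62 with the preparation block (adjusted p = 0.0469).

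**Figure D4:**
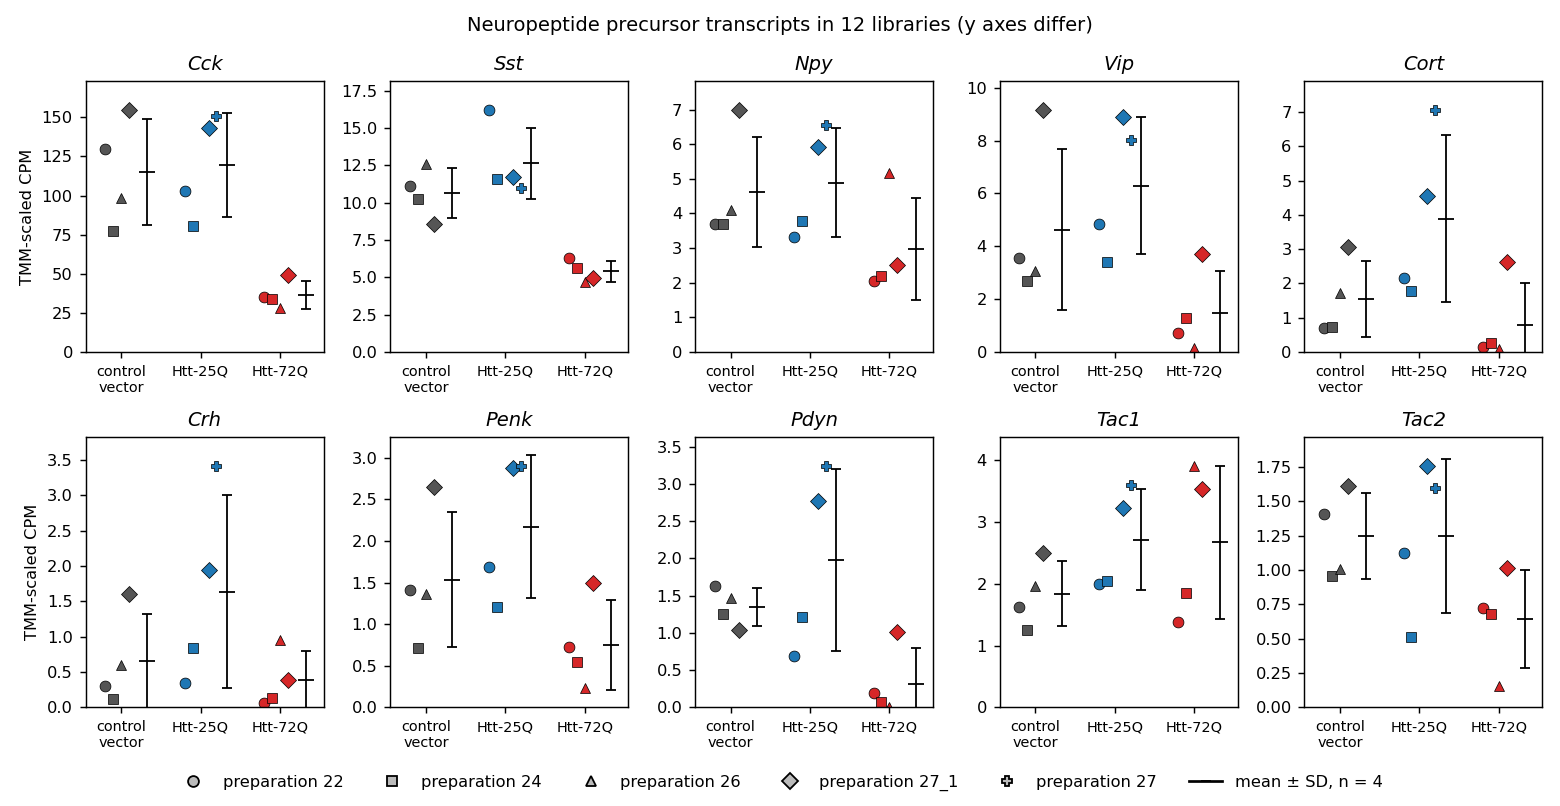
TMM-scaled CPM of the 10 genes in each library, 1 panel per gene with its own axis from 0, with symbols for the preparation and bars for the mean ± SD (n = 4, drawn down to 0 at most). Cck and Sst separate Htt-72Q from both other groups, and the diamonds and crosses of preparations 27_1 and 27 lie high for Vip, Cort, Penk and Tac2.

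The opioid precursors were both lower in Htt-72Q in every preparation. Penk (ENSMUSG00000045573, chromosome 4, 4133531 to 4138819, minus strand) encodes proenkephalin. It stood at 1.41, 0.72, 1.36 and 2.65 CPM in control vector, 1.69, 1.21, 2.88 and 2.90 CPM in Htt-25Q and 0.72, 0.55, 0.24 and 1.499 CPM in Htt-72Q. The groups overlapped, since Htt-72Q 4 lay above 3 of the 4 control libraries and 1 of the Htt-25Q libraries. The log2 fold change was -0.94 ± 0.51 against control vector (adjusted p = 0.208, edgeR) and -1.46 ± 0.50 against Htt-25Q (adjusted p = 0.049). With the preparation block they were -1.05 ± 0.36 (adjusted p = 0.0429) and -1.25 ± 0.37 (adjusted p = 0.0304). The second call in the fit without a block was lost in 7 of 12 fits that left out 1 library, with adjusted p up to 0.128. A gene on the other strand, A830012C17Rik, overlaps Penk and had 4 counts in all 12 libraries together.

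Pdyn (ENSMUSG00000027400, chromosome 2, 129686565 to 129699844, minus strand) encodes prodynorphin. Its levels were 1.63, 1.26, 1.46 and 1.04 CPM in control vector, 0.69, 1.21, 2.77 and 3.25 CPM in Htt-25Q and 0.20, 0.07, 0 and 1.02 CPM in Htt-72Q. The Htt-72Q libraries had 3, 1, 0 and 21 counts, and a count of 0 in Htt-72Q 3 allows a level up to 0.239 CPM (3 counts, counting error only). Htt-72Q lay below every control library, by a small margin for Htt-72Q 4, and overlapped with Htt-25Q. On the log2 scale the change was -1.90 ± 0.72 against control vector (adjusted p = 0.0739, edgeR) and -2.43 ± 0.71 against Htt-25Q (adjusted p = 0.0244). With the preparation block they were -2.32 ± 0.66 (adjusted p = 0.018) and -2.10 ± 0.66 (adjusted p = 0.0399). Without Htt-72Q 4 the first was -3.76 (adjusted p = 0.00465), in a fit with no Htt-72Q library of preparations 27 and 27_1. Pdyn is fitted on few counts, and most of those in Htt-72Q came from Htt-72Q 4.

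Neither tachykinin precursor passed the test. Tac1 (ENSMUSG00000061762, chromosome 6, 7554879 to 7565834, plus strand) encodes the precursor of substance P. It was the one gene of the 10 with a positive fold change in Htt-72Q against control vector, at 1.63, 1.26, 1.97 and 2.49 CPM in control vector, 1.99, 2.05, 3.22 and 3.59 CPM in Htt-25Q and 1.38, 1.84, 3.91 and 3.53 CPM in Htt-72Q. The 3 groups overlapped. The log2 fold change was 0.55 ± 0.36 against control vector (adjusted p = 0.302, edgeR), and -0.02 ± 0.35 against Htt-25Q (adjusted p = 0.974), a sign that turns with the scaling. Tac2 (ENSMUSG00000025400, chromosome 10, 127724478 to 127731767, plus strand), the precursor of neurokinin B, ranged over 0.96 to 1.61 CPM in control vector, 0.51 to 1.76 in Htt-25Q and 0.16 to 1.02 in Htt-72Q. Its log2 fold changes were -0.89 ± 0.47 against control vector (adjusted p = 0.199) and -0.90 ± 0.47 against Htt-25Q (adjusted p = 0.193).

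Markers of GABAergic neurons fell in part. Of 27 tested inhibitory neuron markers 12 fell in Htt-72Q against control vector, none rose and 15 did not pass, where 13.7% of all genes fell, with a median log2 fold change of -0.52, and their summed level was 697 to 868 CPM in Htt-72Q, 1315 to 1571 in control vector and 1212 to 1572 in Htt-25Q. Gad1, which encodes the main GABA-synthesizing enzyme, fell by 1.34 on the log2 scale (adjusted p = 0.00139, edgeR), while Slc32a1, the vesicular GABA transporter, lay at 12.9 to 24.8 CPM in Htt-72Q and 17.8 to 30.3 CPM in control vector (adjusted p = 0.543). Gad2, the other GABA-synthesizing enzyme, did not pass either (-0.44, adjusted p = 0.228, edgeR). Of 18 excitatory neuron markers 11 fell and none rose (914 to 1201 CPM summed, against 1690 to 2123 in control vector). With the preparation block 13 of them fell and 2 rose, where 17.2% of all genes fell and 13.4% rose. Of 10 general neuronal genes 4 fell (5259 to 5521 against 7122 to 8092 CPM). Astrocyte markers (0 of 10 called, 1 of 10 with the preparation block) summed to 2563 to 3008 CPM against 2773 to 3269 CPM. Of 10 tested striatal neuron markers 5 fell and 1 rose, and the list of 13 summed to 178.2 to 218.6 CPM in Htt-72Q against 336.9 to 471.2 CPM in control vector. Neural progenitor markers lay the other way: they summed to 364.3 to 428.5 CPM in Htt-72Q against 310.8 to 337.9 CPM in control vector, without overlap. Of the 8 tested, Top2a alone rose (0.35, adjusted p = 0.0457, edgeR), where 9.44% of all genes rose. With the preparation block 2 of 8 were higher, where 13.4% of all genes rose, and 0 of 9 without preparations 27 and 27_1. Of 8 microglial markers 7 were below 1 CPM in all libraries. The other, Aif1, had a mean of 12.55 CPM in Htt-72Q and 7.70 CPM in control vector (log2 fold change 0.70, adjusted p = 0.27, edgeR), and was called higher with the preparation block. The part of cell composition in the precursor results was not tested.

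Each precursor was also taken relative to the sum of Gad1, Gad2 and Slc32a1 in the same library, in percent of that sum. On this scale Cck alone stayed lower in Htt-72Q without overlap, at 32.0 to 40.5% against 42.3 to 73.8% in control vector and 49.0 to 78.7% in Htt-25Q. Sst overlapped, at 3.65 to 7.31% in Htt-72Q, 3.51 to 7.28% in control vector and 4.38 to 12.4% in Htt-25Q. Tac1 lay higher in Htt-72Q (1.60 to 4.42%) than in control vector (0.689 to 1.14%) and Htt-25Q (1.23 to 1.52%), without overlap. It also lay higher in Htt-25Q than in control vector without overlap, while its CPM overlapped between all groups. The sum itself was 86.3 to 136.5 CPM in Htt-72Q and 173.3 to 244.8 CPM in control vector, so a ratio can rise through the sum alone. Gad1, its largest part in control vector, averaged 47.95 CPM in Htt-72Q and 121.1 CPM in control vector. The other 7 genes overlapped between all groups, and no test was made on these ratios. The share of all genes with ranges apart on this scale is not given here. Whether the separations of Cck and Tac1 are unusual on it was therefore not tested.

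Some receptor genes of these peptides fell in Htt-72Q. Of 23 receptor and binding protein genes for these peptides 15 were tested, and 7 fell in Htt-72Q against control vector with none higher and 8 not passing (median log2 fold change -0.99), where 13.7% of all genes fell. Against Htt-25Q 9 fell with none higher (median -1.04), where 13.4% of all genes fell. These counts were 9 and 7 with the preparation block, where 17.2% and 13.4% of all genes fell. The 8 not tested, Npy2r, Npy4r, Npy6r, Sstr5, Cckar, Oprm1, Oprk1 and Tacr2, reached at most 1.57 CPM in any library. None of the 15 was called for Htt-25Q against control vector. Without preparations 27 and 27_1, 17 were tested. Of these 8 fell against control vector and 5 against Htt-25Q, where 10.4% and 7.31% of all genes fell.

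Of the 4 somatostatin receptor genes tested 3 fell. Sstr2 stood at 41.4, 42.2, 32.2 and 64.7 CPM in control vector, 33.9, 30.7, 59.4 and 57.9 CPM in Htt-25Q and 7.22, 7.71, 6.86 and 10.6 CPM in Htt-72Q. All Htt-72Q libraries lay far below the others, and the log2 fold change was -2.47 ± 0.27 against control vector (adjusted p = 1.81e-05, edgeR). Sstr1 (-2.29 ± 0.29, adjusted p = 7.23e-05) and Sstr4 (-1.86 ± 0.25, adjusted p = 9.96e-05) fell as well. Sstr3, the subtype known from neuronal primary cilia, was at 10.97 to 16.8 CPM in control vector, 10.7 to 14.7 in Htt-25Q and 10.2 to 14.3 in Htt-72Q, with a log2 fold change of -0.18 ± 0.18 (adjusted p = 0.511). The difference between Sstr3 and the other subtypes was not tested.

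Crhr1, the main receptor of corticotropin-releasing hormone, had the smallest p of the list. It stood at 21.01, 29.4, 29.5 and 29.8 CPM in control vector, 21.9, 26.0, 27.2 and 31.9 CPM in Htt-25Q and 3.48, 5.80, 3.67 and 7.30 CPM in Htt-72Q, a log2 fold change of -2.42 ± 0.23 (adjusted p = 6.59e-06, edgeR). It lay low in all 4 Htt-72Q libraries, while its ligand gene Crh did not pass the test. Npy1r, a postsynaptic neuropeptide Y receptor, fell from 37.5 ± 3.55 to 14.01 ± 3.24 CPM (SD, n = 4 each; log2 fold change -1.42, adjusted p = 2.92e-05). Vipr1 fell by 1.08 (adjusted p = 0.00859) and the delta opioid receptor gene Oprd1 by 0.76 on the log2 scale (adjusted p = 0.00965).

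Cckbr, the brain cholecystokinin receptor, differed between preparations. It was at 6.61, 6.64, 6.46 and 23.9 CPM in control vector, 4.98, 3.17, 23.9 and 23.2 CPM in Htt-25Q and 2.04, 2.12, 3.35 and 4.45 CPM in Htt-72Q. The high values are those of preparations 27 and 27_1. The log2 fold change was -1.84 ± 0.64 against control vector (adjusted p = 0.051, edgeR) and -2.19 ± 0.64 against Htt-25Q (adjusted p = 0.0237). The second call was lost in 6 of 25 alternative fits. These were the fits without Htt-25Q 3, Htt-25Q 4, Htt-72Q 1 or Htt-72Q 2, without preparations 27 and 27_1, and with limma voom. Npy5r (-1.04, adjusted p = 0.0383) and Oprd1 (-0.64, adjusted p = 0.0244) passed against Htt-25Q but not with the preparation block (adjusted p = 0.092 and 0.0672). The tachykinin receptors Tacr1 (0.37) and Tacr3 (-0.02 against control vector) did not pass.

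**Figure D5:**
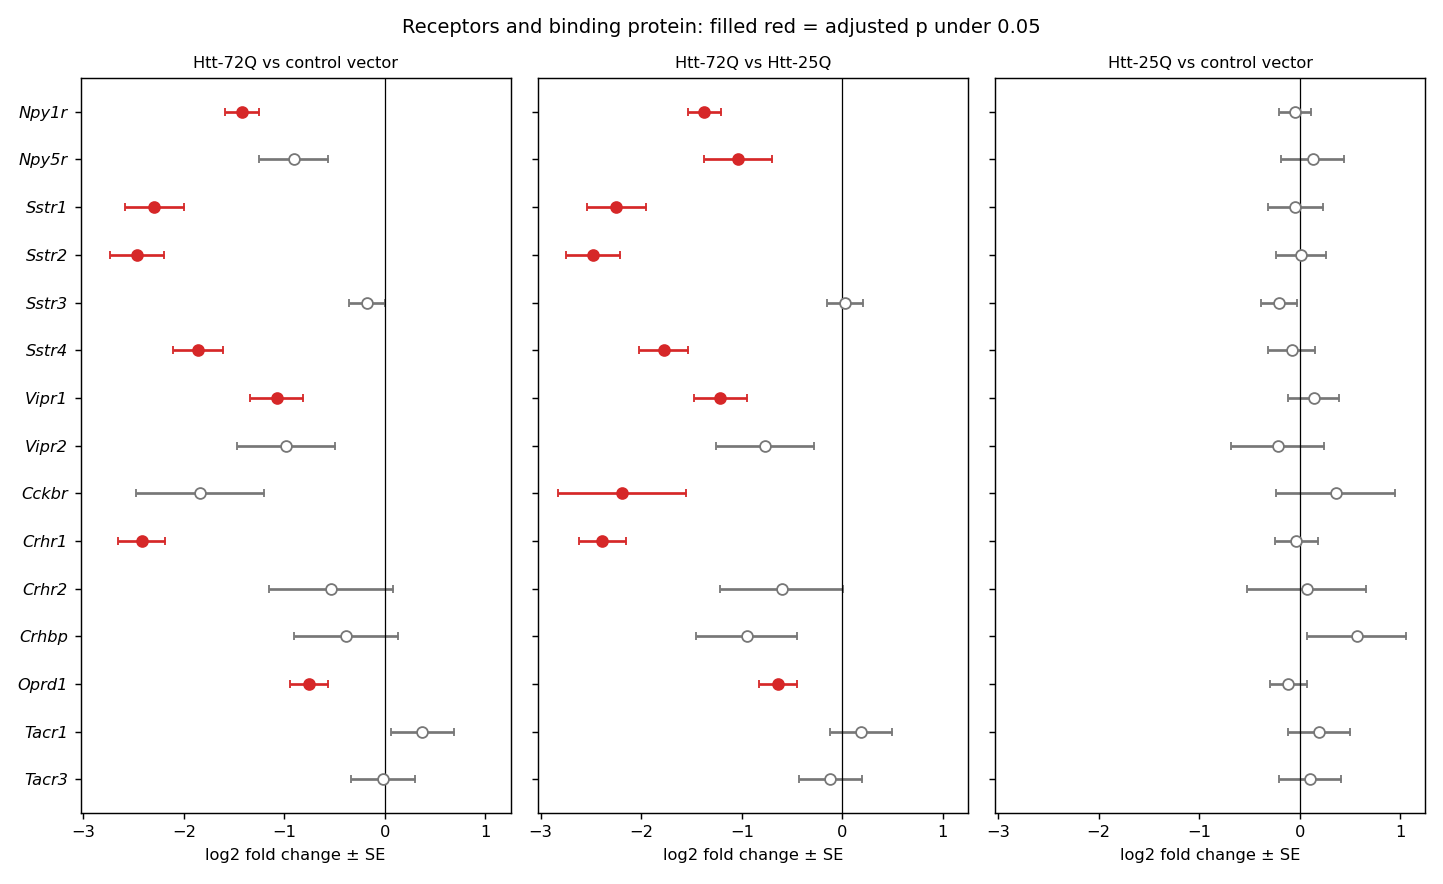
Log2 fold change ± SE of the 15 tested receptor and binding protein genes in the 3 comparisons, filled red where the adjusted p is under 0.05. Sstr1, Sstr2, Sstr4, Crhr1 and Npy1r lie below -1 in both comparisons with Htt-72Q, while Sstr3, Tacr1 and Tacr3 lie near 0.

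Other neuropeptide precursors changed in both directions. Of 42 further precursor genes 14 were tested. Against control vector 3 fell and 2 rose in Htt-72Q (median log2 fold change 0.31), where 13.7% of all genes fell and 9.44% rose. Against Htt-25Q 5 were lower and 1 higher, where 13.4% of all genes were lower and 9.07% higher. Grp, the gastrin-releasing peptide gene, fell, with 2.10 to 7.18 CPM in Htt-72Q against 10.2 to 17.4 CPM in control vector (4 libraries each; log2 fold change -1.59, adjusted p = 0.00135, edgeR). Cartpt (-2.31, adjusted p = 0.0327) and Nppc (-1.23, adjusted p = 0.0273), the precursors of the CART peptide and of C-type natriuretic peptide, fell. Both lost the call without control vector 4, Htt-72Q 2 or Htt-72Q 3, and Cartpt without Htt-72Q 1 too. With the preparation block 5 of the 14 fell and 2 rose against control vector, where 17.2% of all genes fell and 13.4% rose. Without preparations 27 and 27_1, 3 of 15 fell and 0 rose, where 10.4% of all genes fell. Gal, the galanin precursor, went the other way: it was at 0.22, 0.24, 0.66 and 0.48 CPM in control vector, 0.09, 0.14, 0.41 and 0.34 CPM in Htt-25Q and 1.71, 0.89, 0.88 and 1.89 CPM in Htt-72Q. Every Htt-72Q library lay above every other library, from 2 to 39 counts per library, with a log2 fold change of 1.76 ± 0.51 (adjusted p = 0.0211) and 2.43 ± 0.52 against Htt-25Q (adjusted p = 0.00386). The first was above 0.05 without control vector 1, control vector 2, Htt-72Q 1 or Htt-72Q 4, with adjusted p up to 0.0728. Pomc rose by 1.33 against control vector (adjusted p = 0.0382), a call lost in 7 of the 12 fits that left out 1 library.

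The machinery that processes and releases peptides changed in part. Of 19 genes, all tested, 5 fell and 2 rose in Htt-72Q against control vector (median log2 fold change -0.36). Of all genes 13.7% fell and 9.44% rose there. Against Htt-25Q 6 fell and 2 rose, where 13.4% of all genes fell and 9.07% rose. Cadps2, which primes dense-core vesicles for release, fell by 1.71 (adjusted p = 3.89e-06, edgeR) and Pcsk2, a prohormone convertase, by 1.09 on the log2 scale (adjusted p = 7.4e-05). Qpct, which forms the pyroglutamate end of some peptides, rose by 1.39 (adjusted p = 0.00013) and the protease gene Ctsl by 0.52 (adjusted p = 0.00151). Cpe, the carboxypeptidase that trims precursors, did not pass the test, at 1072 CPM in Htt-72Q and 1056 in control vector (log2 fold change 0.02 ± 0.13, adjusted p = 0.926). With the preparation block 9 of the 19 fell and 3 rose against control vector, where 17.2% of all genes fell and 13.4% rose.

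Most activity-induced genes had a negative fold change against control vector but did not pass the test. Of the 26 tested, 24 were negative (median log2 value -0.84, against 0.03 for all genes). Against Htt-25Q 25 were negative (median -1.52, against 0.03 for all genes). Of 26, 4 fell (Egr3, Npas4, Inhba and Dusp6), 1 rose (Crem) and 21 did not pass, a share of lower calls near the 13.7% of all genes. The counts were 13 and 1 in the fit with the preparation block, where 17.2% of all genes fell, and 10 fell and 1 rose against Htt-25Q, where 13.4% fell. Without preparations 27 and 27_1 the counts were 9 and 1 in each comparison. There 10.4% of all genes fell against control vector and 7.31% against Htt-25Q. The call of Egr3 was lost without control vector 2, 3 or 4 or Htt-72Q 1, 2 or 3, and that of Npas4 without control vector 1 or 4 or Htt-72Q 1, 2 or 3. The summed level of the 26 genes in preparation 22 was 308 in Htt-72Q, 560 in control vector and 556 CPM in Htt-25Q. In the same order it was 288.0, 467.0 and 546.8 CPM in preparation 24, and 805, 1725 and 1872 CPM in preparation 27_1. Preparation 26 had 385.0 CPM in Htt-72Q and 557.5 CPM in control vector. Of 12 genes for CREB proteins and their coactivators 0 fell and 2 rose against control vector, where 13.7% of all genes fell and 9.44% rose. With the preparation block 1 fell and 2 rose, where 17.2% of all genes fell and 13.4% rose. Creb3 rose by 0.90 (adjusted p = 0.000996, edgeR) and Crem by 1.18 on the log2 scale (adjusted p = 0.00775). The short product of Crem, ICER, represses cyclic AMP responses. Creb1 had a log2 fold change of -0.13 ± 0.12 (adjusted p = 0.473). The part of neuronal activity in the precursor results was not tested.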

How the data were processed

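RNA-seq counts were analysed for 12 libraries in 3 groups of 4. Per the submitters' processing notes the tools were STAR 2.0.4b, Subread and featureCounts 1.45, with the build GRCm38. The sources used here do not give roles, settings, strandedness or the annotation release. The authors deposited read counts per gene with CPM (counts relative to the library's total) and RPKM (CPM per kilobase). The deposited CPM and RPKM follow from the counts within 5.09e-10 and 5.09e-11. Each library was sequenced in 2 lanes that the authors merged, per the labels. Positions are those of the deposited tables, and 40158 of the 40254 genes with a symbol overlap the same gene in GENCODE M21.

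The counts were tested with edgeR 4.0.16 (R 4.3.3) by the quasi-likelihood test, with TMM scaling and filterByExpr at a minimum count of 10, in 1 fit of all 12 libraries (9 residual degrees of freedom, 14707 genes). P-values are two-sided with Benjamini-Hochberg adjustment over all genes tested, called under 0.05. The SE is the log2 fold change divided by the root of F. The script was tested on simulated data. Fits with DESeq2 1.42.0, limma voom 3.58.1, other scalings, filters and blocks, and without each library were alternatives. The fits without preparations 27 and 27_1 and with a class of library (split at the largest gap in log2 CPM of Gapdh) were added after seeing the data.

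Residuals correlated above 0.1 in 10 of 10 pairs of libraries with the same preparation number (lowest 0.113, median 0.282) and in 4 of 34 pairs that shared neither preparation nor title number, so preparation was taken to pair libraries. No libraries were duplicates (smallest chi-square per degree of freedom 9.00). The precursors and the gene lists were chosen with earlier results of these data known. Named are all 10 precursors, at most 4 called genes of each other list with the smallest p, receptors of the precursors, and the 3 genes most correlated with each precursor of at least 10 CPM on average. Genes named beyond this rule (Gad2, Slc32a1, Aif1, Cpe, Creb1, Gapdh, mt-Nd2 and Htt among them) were chosen after their values were seen.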

Additional observations from a re-analysis of the deposited data

Results flagged for a closer look

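In 5 of 30 groups of 4 libraries the CPM of a precursor held a library that lay apart from the other 3, by a gap of more than 0.83 of the range. Chance flags about 1 in 20 groups. Npy lay at 6.99 CPM in control vector 4, where the other control libraries had 3.699 to 4.09. It also lay at 5.18 CPM in Htt-72Q 3, against 2.04 to 2.52 in the other Htt-72Q libraries. Sst stood at 16.2 CPM in Htt-25Q 1, against 10.99 to 11.7. Vip was at 9.16 CPM in control vector 4, against 2.69 to 3.57, and Cort at 2.61 CPM in Htt-72Q 4, against 0.08 to 0.27. Control vector 4 and Htt-72Q 4 are libraries of preparation 27_1, in which the activity-induced genes were high. The part of the preparation in these values was not tested.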

How the results depend on the processing

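For Htt-72Q against control vector the number of precursors called was 2, and 4 without a filter, 4 with the title number as replicate block, 5 with preparation as replicate block, 5 with preparations 27 and 27_1 merged in the block, 5 without these preparations, and 2 to 5 when 1 library was left out (5 without Htt-72Q 4). The fit without Htt-72Q 4 holds no Htt-72Q library of preparations 27 and 27_1. The number of all genes called moved too. It was 3411 in the fit without a block, 4490 with preparation as block and 2671 to 3265 when 1 library was left out. The numbers of all genes called without a filter and with the other blocks are not given here. Against Htt-25Q the number of precursors called was 5, and 2 to 6 when 1 library was left out, where 2293 to 3902 of all genes were called. All genes called in that comparison fell from 3308 to 1606 without preparations 27 and 27_1, a fit of fewer libraries. Calls of Cck and Sst in both comparisons were kept in all alternatives run. Apart from the calls given in the text, the preparation block changed no other call of a precursor. Pairs of libraries with the same title number correlated above 0.1 in 10 of 12 cases, and in 2 of the 4 that did not share the preparation as well (-0.49 to 0.425).

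Signs turned for these log2 fold changes, none of them called. For Htt-72Q against control vector, Crh was 0.072 without preparations 27 and 27_1 and -1.514 to 0.087 when 1 library was left out. For Htt-72Q against Htt-25Q, Tac1 was 0.028 with upper-quartile scaling, 0.045 with library totals, 0.021 with the library class, 0.22 without preparations 27 and 27_1 and -0.25 to 0.19 when 1 library was left out. For Htt-25Q against control vector the values without preparations 27 and 27_1 were -0.12 for Npy, -0.16 for Cck, -0.62 for Pdyn and -0.46 for Tac2. With preparation as replicate block they were -0.16, -0.22 and -0.43 for Cck, Pdyn and Tac2, and with 27 and 27_1 merged -0.14, -0.12 and -0.40. Tac2 was -0.087 with limma voom, 0.00 with a filter of 1 CPM, -0.008 with the title number as replicate block and -0.002 in a fit of 2 groups. When 1 library was left out Npy ran from -0.085 to 0.35, Cck from -0.12 to 0.23 and Tac2 from -0.21 to 0.27. The cause was not tested. Depth limits Vip, Crh, Penk, Pdyn, Tac2 and Cort, with 0 to 3 counts in at least 1 library each.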
